A study of Mus musculus with 6 samples.

Results

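Rab GTPases are small membrane proteins that mark the compartments of the vesicle traffic system, and 42 mouse Rab genes are described here in lung cancer cells made to express Zeb1. The members were every probe set whose platform annotation names 1 of these genes alone, which gave 97 probe sets of the 45101 on the array, with all 42 genes present. RNA was measured on 3 arrays of 393P cells that stably carry a Zeb1 vector and are meant to express it constitutively, and on 3 arrays of 393P cells that stably carry the empty pcDNA control vector. The 393P line is a mouse lung cancer line, both kinds of cell were kept in RPMI with serum, and each array is 1 culture. The labels do not say whether a transfected line was 1 clone or a pool, so the p-values measure the spread between cultures and not between transfections.

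A Rab protein cycles between a GTP-bound form on a membrane, where it recruits effectors such as motors and tethers, and a GDP-bound form held in the cytosol by GDI. Exchange factors (GEFs) switch it on, GTPase-activating proteins (GAPs) switch it off, and prenylation gives it the lipid that holds it in the membrane. Most Rabs are made in every cell, whereas a few are restricted to epithelia or to secretory cells, where they serve apical recycling, tight junctions and regulated secretion. Zeb1 is a repressor that binds E-box sequences with the letters CACCTG and is known for silencing epithelial genes.

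The promoter regions of 4 Rabs linked to epithelia are printed because they set the largest fall, a smaller fall, the largest rise and a gene with no call side by side. Each line is the 250 bases before the annotated start site, 5′ to 3′ on the gene's own strand, from RefSeq (GRCm38.p6), and capitals mark CACCTG or its reverse complement CAGGTG, so that both strands were searched. The positions are chr3:88548280-88548529, minus strand for Rab25, chr8:11478641-11478890, minus strand for Rab20, chr1:90967668-90967917, minus strand for Rab17 and chr4:108878820-108879069, plus strand for Rab3b.
Rab25: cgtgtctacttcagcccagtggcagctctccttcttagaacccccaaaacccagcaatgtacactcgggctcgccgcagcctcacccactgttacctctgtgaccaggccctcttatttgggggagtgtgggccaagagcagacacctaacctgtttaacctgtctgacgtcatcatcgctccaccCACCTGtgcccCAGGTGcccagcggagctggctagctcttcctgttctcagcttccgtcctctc
Rab20: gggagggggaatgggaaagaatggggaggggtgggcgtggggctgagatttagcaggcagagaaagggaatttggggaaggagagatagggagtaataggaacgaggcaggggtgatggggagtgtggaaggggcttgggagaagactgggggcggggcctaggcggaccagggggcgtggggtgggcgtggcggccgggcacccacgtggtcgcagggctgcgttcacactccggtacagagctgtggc
Rab17: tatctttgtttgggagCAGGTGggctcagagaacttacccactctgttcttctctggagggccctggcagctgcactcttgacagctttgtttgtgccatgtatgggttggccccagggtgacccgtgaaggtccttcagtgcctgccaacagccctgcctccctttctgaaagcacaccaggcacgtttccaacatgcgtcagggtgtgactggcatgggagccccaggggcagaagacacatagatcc
Rab3b: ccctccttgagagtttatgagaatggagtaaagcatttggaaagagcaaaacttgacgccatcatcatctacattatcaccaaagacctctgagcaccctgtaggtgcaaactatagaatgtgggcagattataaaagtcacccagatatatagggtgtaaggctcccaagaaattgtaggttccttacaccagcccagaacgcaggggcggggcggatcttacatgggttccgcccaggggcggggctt
In Rab25 the motif occurred 2 times, with first bases at -64 and -53 from the start site, and in Rab17 it occurred 1 time, at -234. The windows of Rab20 and Rab3b did not hold it. Of the 36 Rab genes with a window in the table, 8 had at least 1 match in any of their windows (22.2%), against 19.4% of all 27025 genes in the table. A second match in 1 window was found in 2 of the 36 Rab genes (5.56%), Rab25 and Rab23, against 2.39% of all genes, and the other window of Rab23 had no match. At least 1 match was found in 3 of 10 Rab genes called lower, 1 of 8 called higher and 4 of 16 not called. A link between matches and calls was not tested. A match is a run of letters, and no binding was measured.

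The Zeb1 probe set that stood for the gene read 9.71, 9.59 and 9.78 log2 units on the Zeb1 vector arrays, against 4.45, 4.45 and 4.50 on the control vector arrays (at least 37.4-fold higher, log2 change 5.23), so the targeted gene went the way of the labels. This probe set passed the filter described below through the Zeb1 vector arrays alone, so it had to differ. A floor at the 50th percentile gave 3.37. Another tested Zeb1 probe set had a log2 change of 1.17 (adjusted p = 0.00895), and where it was the brighter one, with no floor or without 1 Zeb1 vector array, the gene's change was 1.02 to 1.31. Over probe sets, which do not act as replicates, Pearson's r ran between 0.980 and 0.983 for arrays within a group and between 0.930 and 0.935 across groups. Signals under 4.45 were raised to that value, the 25th percentile of all values, called the floor here. The simple-epithelial keratins Krt8, Krt18 and Krt19 averaged 14.32, 14.72 and 13.42 in Zeb1 vector cells and 14.47, 14.69 and 13.46 in control vector cells. Krt8 was called lower without overlap (log2 change -0.16, adjusted p = 0.0131), a call lost under 4 of 15 alternatives, and Krt18 and Krt19 were not called. The epithelial adhesion genes Cdh1 and Epcam fell much further, with log2 changes of -4.01 and -7.05. Of the lung lineage markers, Nkx2-1 and Scgb1a1 lay near the floor in both groups (4.63 and 4.70 in Zeb1 vector cells, 4.79 and 4.83 in control vector cells), while Sftpb, Sftpd and Sftpc averaged 8.44, 6.74 and 6.30 in Zeb1 vector cells and 8.08, 6.95 and 6.31 in control vector cells and were not called. Below the pooled median of 6.32 in both groups were 4 of 4 leukocyte, 3 of 3 endothelial, 4 of 5 fibroblast, 2 of 4 neuronal and 3 of 4 melanocyte markers. The fibroblast collagens Col3a1 and Col1a1 were too low to be tested. They averaged 6.22 and 5.95 in Zeb1 vector cells and 4.87 and 5.37 in control vector cells, without overlap. Col1a2 (6.72 in Zeb1 vector cells, 6.75 in control vector cells) was not called. The fibroblast markers Dcn and Pdgfra, also too low to be tested, went the other way with overlap. They averaged 4.66 and 5.57 in Zeb1 vector cells and 5.45 and 5.96 in control vector cells. The part of other cell types in the results was not tested.

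The Rab family as a whole did not move in 1 direction. Probe sets entered the test when 3 or more of 6 arrays had them at or over that array's own median, and each gene was called through its brightest tested probe set with limma at an adjusted p below 0.05. Of 40 tested Rab genes 11 were called higher in Zeb1 vector cells and 11 lower (27.5% each), beside 25.8% called higher and 23.5% called lower among all 11893 tested genes. Together 55% of the Rabs were called, beside a background of 49.3%, so the share is near the background. The median log2 change was 0.06 over the Rabs and 0.01 over all tested genes. Changes of at least 2-fold were called in 7 Rabs (17.5%, background 15.8%): Rab25 and Rab20 were lower, and Rab3b, Rab8b, Rab13, Rab38 and Rab18 were higher. The values of the Zeb1 vector and control vector arrays did not overlap for 24 Rabs (60%), against a background of 58.2%. Rab6b, a neuronal Golgi isoform, and Rab39b, another neuronal member, stayed under the filter and were not tested. Rab25 was the 1 Rab that passed the filter through a single group, the control vector arrays, so it had to differ. No Zeb1 vector array had it at or over its median.

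**Figure D1:**
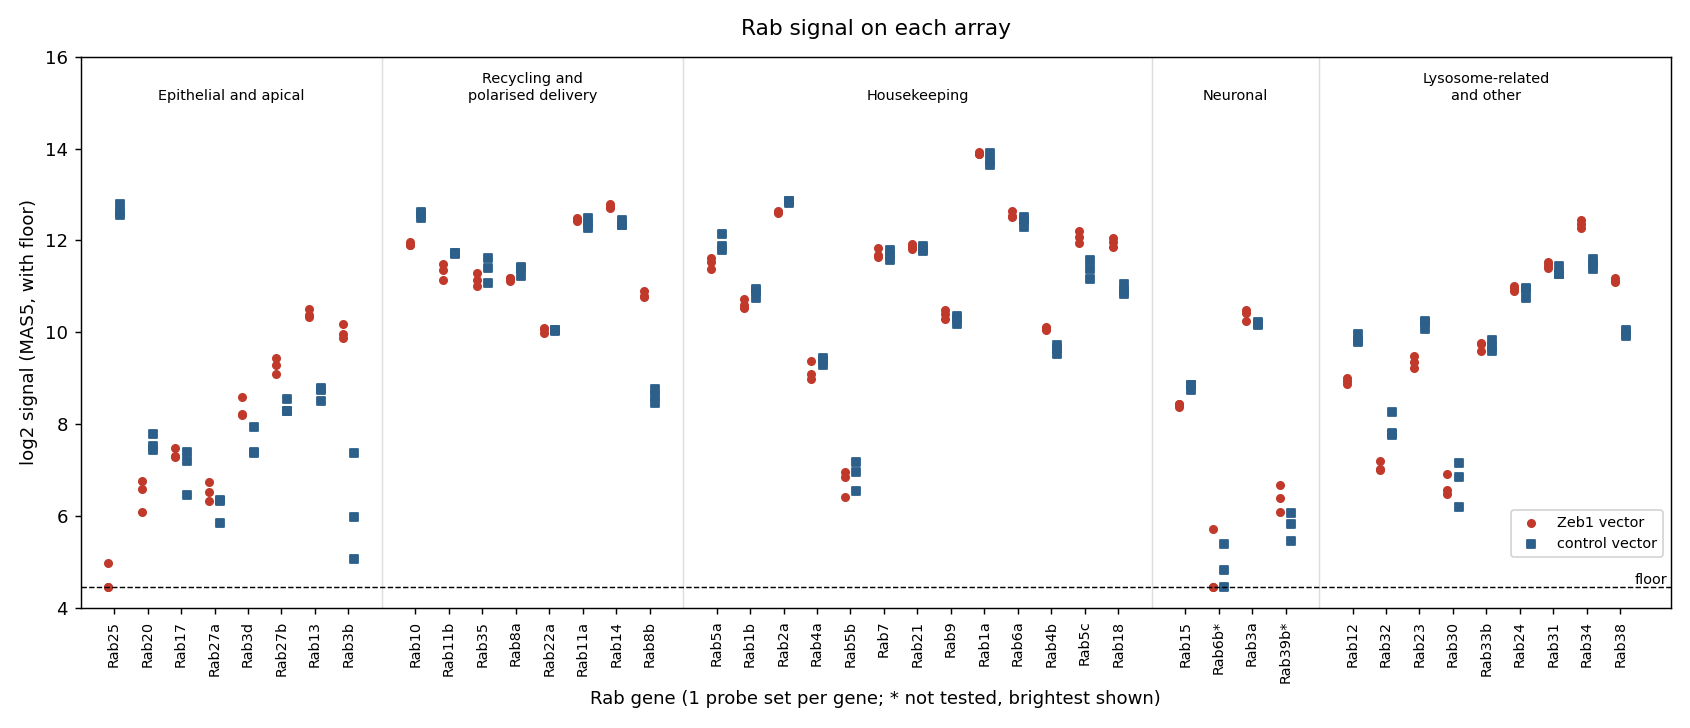
log2 signal of each Rab gene (vertical axis) on each array, with the 3 Zeb1 vector arrays as circles and the 3 control vector arrays as squares, grouped by list and ordered by log2 change within a list. Rab25 is the gene at the far left, at 4.45 to 4.99 in Zeb1 vector cells and 12.55 to 12.79 in control vector cells. The dashed line is the floor, and levels of different genes are not comparable because each probe set has its own response.

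The epithelial and apical Rabs were divided. Rab25 fell to the floor or near it, Rab20 fell, and Rab3b, Rab13, Rab27b and Rab3d rose. Of 8 members 4 rose, 2 fell and 2 were not called (50% higher and 25% lower, beside 25.8% and 23.5% over all tested genes). The list's median log2 change was 0.57 while its mean was -0.14, a difference in sign, and the mean includes the -8.03 of Rab25. The list and its members were chosen with earlier results of these arrays known.

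Rab25, a Rab11 relative largely restricted to epithelia where it serves the recycling endosome beneath the apical membrane, is read by 1 probe set (1417738_at). It gave 4.45, 4.99 and 4.45 log2 units on the Zeb1 vector arrays, 2 of which were at the floor, against 12.79, 12.55 and 12.63 on the control vector arrays. Zeb1 vector cells thus had almost no signal above the floor, and control vector cells had a high signal on all 3 arrays. The log2 change was -8.03 (SE 0.165, adjusted p = 1.45e-09), at least 261-fold lower given the floor. The probe set passed the filter through the control vector arrays alone, so it had to differ and its p-value is no separate evidence. Raising the floor to the 50th percentile gave -6.33 on the log2 scale, and removing it gave -8.62. In bulk RNA a loss from every cell and the loss of cells that carry the transcript cannot be told apart. Its 2 promoter matches are those in the sequence above.

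Rab20, found at the apical side of mouse kidney tubule cells, read 6.59, 6.77 and 6.08 on the Zeb1 vector arrays, against 7.44, 7.53 and 7.79 on the control vector arrays. All 3 Zeb1 vector values lay below all 3 control vector values, at a modest signal. The fall was 1.10 on the log2 scale (SE 0.232, adjusted p = 0.00334), or 2.15-fold lower. Rab17, an epithelial Rab of apical recycling and transcytosis, was not called. It read 7.29, 7.30 and 7.48 on the Zeb1 vector arrays, against 6.45, 7.40 and 7.19 on the control vector arrays, with overlapping groups. Its log2 change was 0.34 (SE 0.254, adjusted p = 0.313), and its other probe set was not tested.

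The largest rise of the family was that of Rab3b, a Rab of regulated secretion that lies near tight junctions in polarised cells. Its probe set (1422583_at) read 9.88, 9.97 and 10.19 on the Zeb1 vector arrays, against 5.98, 7.37 and 5.06 on the control vector arrays. The control vector arrays were spread widely at low signal (SD 1.16), and all lay below the Zeb1 vector arrays. Only 1 control vector array reached its own median. The probe set thus passed the filter because of the Zeb1 vector arrays, where it is high, and its p-value carries that selection. Rab3b was at least 14.7-fold higher (log2 change 3.87, SE 0.459, adjusted p = 9.30e-05), where the control mean of 6.14 lies under the pooled median, and a floor at the 50th percentile gave 3.34 on the log2 scale. Its relative Rab3d, which sits on the secretory granules of exocrine cells, read 8.19, 8.23 and 8.59 on the Zeb1 vector arrays, against 7.39, 7.38 and 7.93 on the control vector arrays. That is a rise of 0.77 (SE 0.194, adjusted p = 0.00878). The other tested probe sets of Rab3d had log2 changes of 0.62 and 0.51 and were not called, and without a filter Rab3d missed the threshold (adjusted p = 0.0596).

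Rab13, which brings junction proteins to tight junctions, was higher in Zeb1 vector cells. It read 10.37, 10.51 and 10.34 on the Zeb1 vector arrays, against 8.75, 8.79 and 8.50 on the control vector arrays. The groups lay far apart beside SDs of 0.09 in Zeb1 vector cells and 0.16 in control vector cells, and the gene was 3.31-fold higher (log2 change 1.73, SE 0.110, adjusted p = 1.42e-06). The exocytic Rab27b, which docks secretory granules and exosome-bearing endosomes, read 9.43, 9.28 and 9.10 on the Zeb1 vector arrays, against 8.28, 8.54 and 8.28 on the control vector arrays. It rose by 0.90 (SE 0.132, adjusted p = 0.000365). A second probe set rose by 0.73, and another, of the kind whose probes can match other transcripts (suffix _x_at), had a change of -0.02. The mean over the probe sets of Rab27b was 0.54. Its partner Rab27a lay low in both groups, with 6.33, 6.73 and 6.53 on the Zeb1 vector arrays, against 5.85, 6.32 and 6.35 on the control vector arrays, and was not called (adjusted p = 0.303). The other 3 probe sets of Rab27a were at or near the floor and were not tested.

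**Figure D2:**
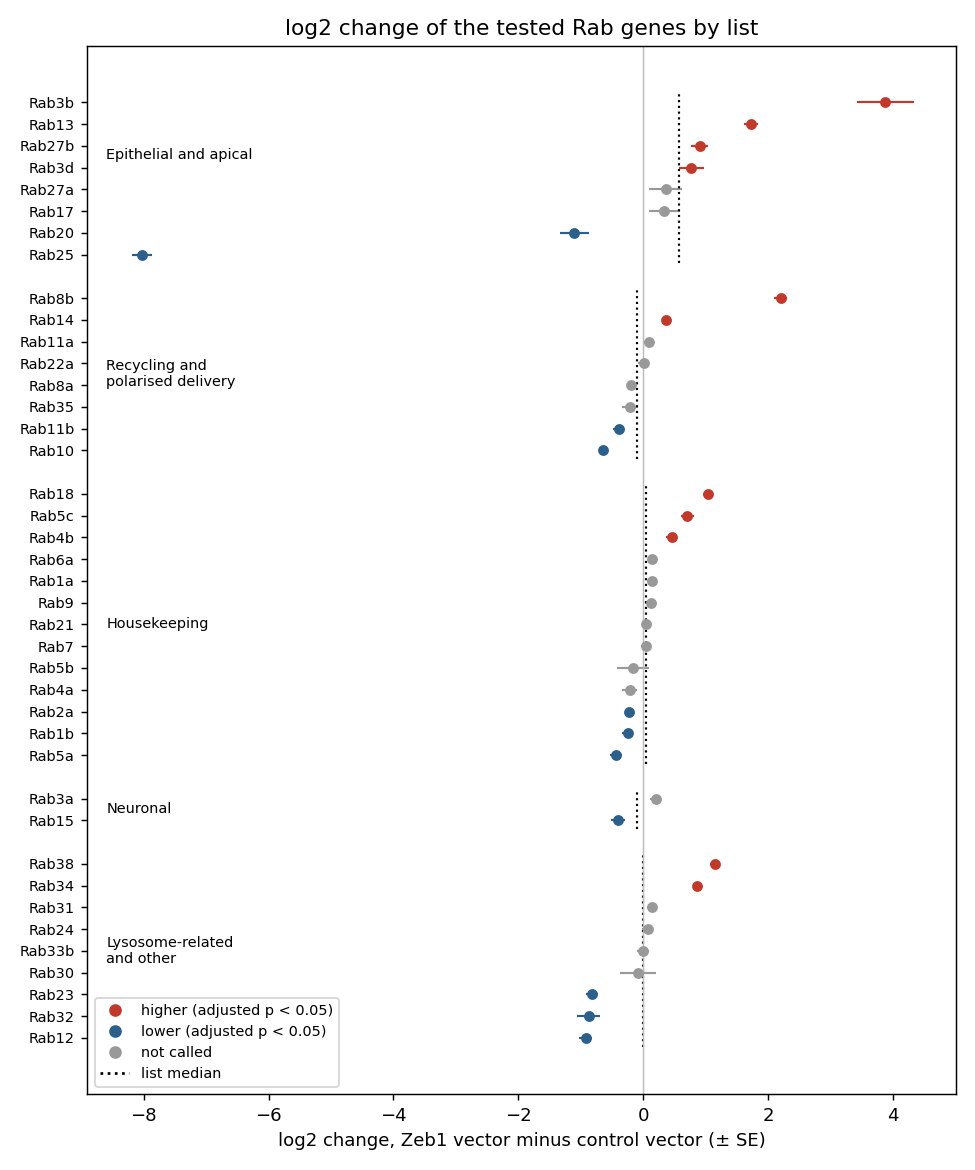
log2 change of the 40 tested Rab genes (horizontal axis, Zeb1 vector minus control vector, with SE from limma), grouped by list, in red where called higher, blue where called lower and grey where not called. Dotted lines are list medians, and Rab25 at -8.03 and Rab3b at 3.87 are the extremes.

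Among the Rabs that recycle membrane and deliver cargo to polarised surfaces, Rab8b had the largest change. Of 8 members 2 rose (Rab8b and Rab14), 2 fell (Rab10 and Rab11b) and 4 were not called, with a median log2 change of -0.09. The 50% called is near the background of 49.3%. Rab8b, which carries cargo from the Golgi to the plasma membrane and to cilia, read 10.90, 10.77 and 10.80 on the Zeb1 vector arrays, against 8.46, 8.62 and 8.78 on the control vector arrays. It was 4.60-fold higher (log2 change 2.20, SE 0.105, adjusted p = 2.07e-07). Its other probe set lay low, at 6.86, 6.74 and 4.73 on the Zeb1 vector arrays, against 6.64, 5.36 and 6.76 on the control vector arrays, with a change of -0.14 (adjusted p = 0.871). The mean of the probe sets of Rab8b gave 1.03 (adjusted p = 0.0170). Rab8a, its close relative in the same step, read 11.19, 11.18 and 11.12 on the Zeb1 vector arrays, against 11.41, 11.22 and 11.43 on the control vector arrays, and was not called (log2 change -0.19, adjusted p = 0.0739). Another tested probe set of Rab8a had a change of 0.40, without overlap, that was not called (adjusted p = 0.160).

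Rab10, which serves basolateral delivery in epithelia, fell on all 3 of its probe sets. The brightest read 11.90, 11.90 and 11.96 on the Zeb1 vector arrays, against 12.50, 12.61 and 12.58 on the control vector arrays. Its change was -0.64 (SE 0.0588, adjusted p = 1.72e-05), and those of the other probe sets were -1.04 and -0.82, so the size differs by probe set and the direction does not. Rab14, which links Golgi and endosomes, read 12.78, 12.70 and 12.74 on the Zeb1 vector arrays, against 12.33, 12.44 and 12.34 on the control vector arrays. Its change was 0.37 (adjusted p = 0.000540), and over its 6 tested probe sets the changes ran between 0.07 and 1.12, with 3 called higher. The probe set at 1.12 passed the filter through the Zeb1 vector arrays alone, so it had to differ.

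The recycling endosome Rabs Rab11a and Rab11b, the nearest relatives of Rab25, changed far less than it did. Rab11a read 12.45, 12.43 and 12.49 on the Zeb1 vector arrays, against 12.49, 12.27 and 12.35 on the control vector arrays. Its change of 0.09 (SE 0.0664, adjusted p = 0.332) was within the overlap of the groups, although a second probe set rose by 0.59 (adjusted p = 0.000387). Rab11b read 11.14, 11.36 and 11.48 on the Zeb1 vector arrays, against 11.73, 11.70 and 11.72 on the control vector arrays, a fall of 0.39 on the log2 scale (SE 0.0882, adjusted p = 0.00497). The other probe sets of Rab11b had log2 changes of -0.44 (adjusted p = 0.0457) and -0.34, the latter not called. Rab22a, an endosomal recycling Rab, had a change of 0.0046 on its brightest probe set (adjusted p = 0.972), while 2 of its other probe sets rose, by 1.26 and 0.53. Rab35, which acts in fast recycling and cell division, was not called (log2 change -0.22, adjusted p = 0.206).

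**Figure D3:**
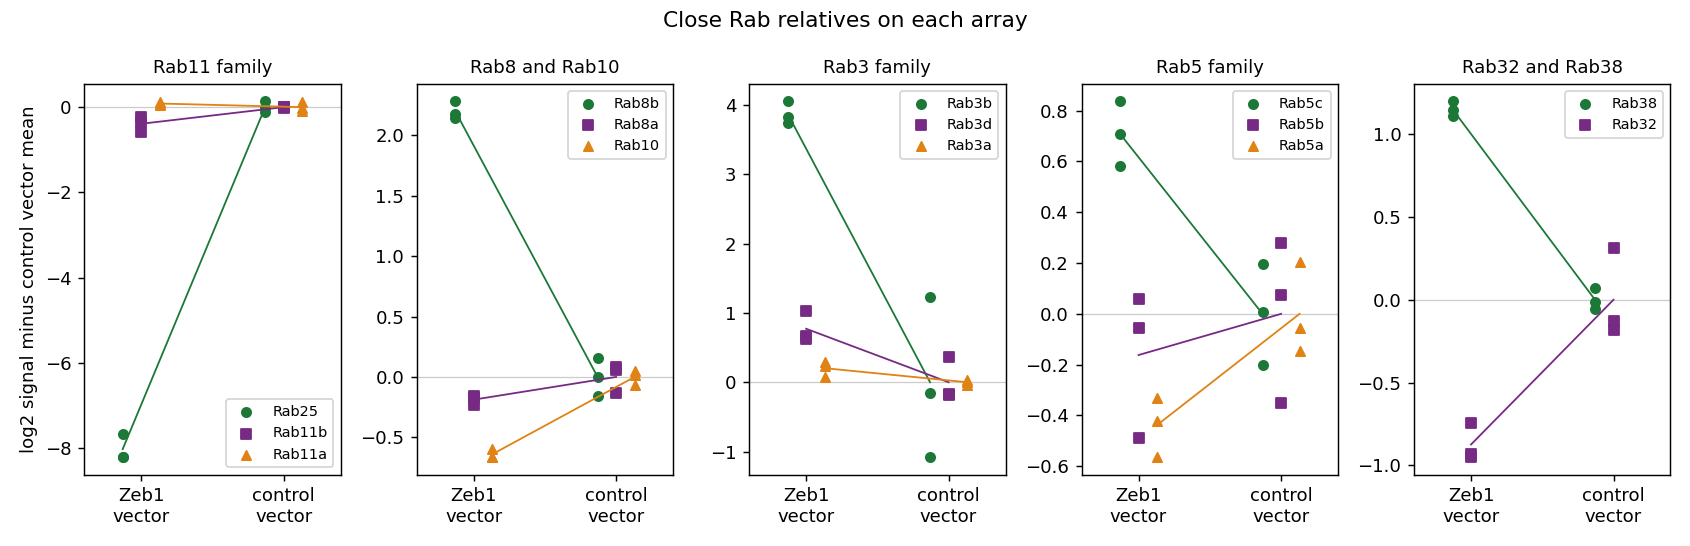
log2 signal minus the gene's own control vector mean (vertical axis, a different scale in each panel) for close relatives, with 3 Zeb1 vector arrays on the left and 3 control vector arrays on the right of each panel and lines between the group means. Rab25 changed by -8.03 while Rab11a and Rab11b changed by 0.09 and -0.39, and Rab38 and Rab32 moved apart.

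The changes of close relatives within a Rab subfamily are set side by side as a description. For 14 pairs the difference between the log2 signals of the members was compared between the Zeb1 vector and control vector arrays. The brightest tested probe set stood for each member. No pair could pass 0.05, since 3 arrays against 3 cannot give a two-sided exact permutation p under 0.1, and the lowest p was 0.108 after Benjamini-Hochberg adjustment over the 14 pairs. The pairs share members, and some were known to differ when they were chosen. The change of Rab25 minus that of Rab11a was -8.11, that of Rab3b minus Rab3a was 3.67, that of Rab8b minus Rab8a was 2.39 and that of Rab38 minus Rab32 was 2.02. The smallest difference was 0.28, for Rab5b minus Rab5a (exact permutation p = 0.6).

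The housekeeping Rabs, which run the early secretory and endocytic routes of every cell, changed little in size. Of 13 members 3 rose, 3 fell and 7 were not called (46.2% called, background 49.3%), with a median log2 change of 0.05 and a range of -0.44 to 1.03. The median size of change without regard to sign was 0.21, beside 1.00 in the epithelial and apical list and 0.36 over all tested genes. It was 0.82 in the list of lysosome-related and other Rabs, 0.29 in the recycling list and 0.30 over the 2 tested neuronal Rabs. The difference between the lists was not tested, since their members were chosen with results known.

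Rab18, a Rab of lipid droplets and the endoplasmic reticulum, was the housekeeping member with a change over 2-fold. It read 12.05, 11.97 and 11.85 on the Zeb1 vector arrays, against 11.05, 10.83 and 10.89 on the control vector arrays. Its rise was 1.03 (SE 0.0828, adjusted p = 6.88e-06), and its second probe set rose by 0.81. The early endosome Rabs went different ways. Rab5c read 11.95, 12.08 and 12.20 on the Zeb1 vector arrays, against 11.17, 11.56 and 11.37 on the control vector arrays, and rose by 0.71 (adjusted p = 0.000416). Rab5a read 11.62, 11.53 and 11.38 on the Zeb1 vector arrays, against 11.89, 12.15 and 11.80 on the control vector arrays, and fell by 0.44 (adjusted p = 0.00516). Both were clear of overlap, whereas the low Rab5b was not called (log2 change -0.16, adjusted p = 0.641). Without a filter Rab5a missed the threshold (adjusted p = 0.0565).

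Rab4b, of fast recycling, read 10.05, 10.09 and 10.11 on the Zeb1 vector arrays, against 9.63, 9.72 and 9.52 on the control vector arrays, and rose by 0.46 (adjusted p = 0.00224). Its relative Rab4a was not called (log2 change -0.21, adjusted p = 0.185). The early secretory Rabs Rab2a and Rab1b had the smallest called changes of the family. Rab2a, of Golgi to endoplasmic reticulum traffic, read 12.63, 12.60 and 12.63 on the Zeb1 vector arrays, against 12.87, 12.85 and 12.81 on the control vector arrays (log2 change -0.22, adjusted p = 0.00523), and 4 of its other tested probe sets were not called. Its call was lost with the mean of its probe sets (adjusted p = 0.245) and without the intensity trend (adjusted p = 0.0567). Rab1b, which drives transport to the Golgi, had a change of -0.25 (adjusted p = 0.0446), a call lost under 8 of 15 alternatives (adjusted p up to 0.151). Rab1a (0.13), Rab6a of the Golgi (0.15), Rab7 of late endosomes (0.04), Rab9 of late endosome to Golgi return (0.12) and Rab21 of integrin uptake (0.05) had changes on the log2 scale that were not called, with adjusted p between 0.129 and 0.742.

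Among the neuronal Rabs, Rab15, a neural endocytic Rab, read 8.43, 8.43 and 8.38 on the Zeb1 vector arrays, against 8.86, 8.74 and 8.86 on the control vector arrays. It fell by 0.40 (SE 0.111, adjusted p = 0.0136). Rab3a, the synaptic vesicle Rab, was read by a probe set of the _x_at kind and had a change of 0.20 that was not called (adjusted p = 0.0861), although its groups did not overlap. Its other probe set had a change of 0.04. Of the untested pair, Rab6b had all 4 probe sets near the floor, and Rab39b on its brighter probe set read 6.09, 6.69 and 6.39 on the Zeb1 vector arrays, against 5.46, 5.83 and 6.06 on the control vector arrays.

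Among the Rabs of lysosome-related organelles and the remaining members 2 of 9 were higher, 3 lower and 4 not called (55.6% called, near the background of 49.3%). Rab38 and Rab32 are relatives that work together in bringing enzymes to melanosomes, and here they moved in opposite directions. Rab38 read 11.17, 11.12 and 11.09 on the Zeb1 vector arrays, against 9.92, 10.05 and 9.97 on the control vector arrays. It was 2.22-fold higher (log2 change 1.15, SE 0.0761, adjusted p = 1.89e-06), and its second probe set rose by 1.201. Rab32 read 7.21, 6.999 and 7.02 on the Zeb1 vector arrays, against 8.26, 7.77 and 7.82 on the control vector arrays, and fell by 0.87 (SE 0.186, adjusted p = 0.00353). Of the melanocyte markers Mlana was at the floor on every array, and Pmel, Dct and Tyr averaged 7.44, 6.04 and 5.94 in Zeb1 vector cells and 7.34, 6.18 and 6.09 in control vector cells. Pmel was not called, the others were too low to be tested, and the summed linear signal of all 4 was 291 to 348 in Zeb1 vector cells and 285 to 411 in control vector cells.

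Rab34, which acts in cilium formation and the placing of lysosomes, read 12.37, 12.45 and 12.27 on the Zeb1 vector arrays, against 11.61, 11.50 and 11.38 on the control vector arrays. It rose by 0.87 (adjusted p = 1.44e-05), and its second probe set by 0.96. Rab23, known as a brake on Hedgehog signalling in mice, went the other way on all 3 probe sets. The brightest read 9.48, 9.23 and 9.36 on the Zeb1 vector arrays, against 10.07, 10.22 and 10.25 on the control vector arrays (log2 change -0.82, adjusted p = 0.000119), and the others fell by 1.22 and 0.67. Rab12, which sends transferrin receptor to lysosomes, read 8.93, 9.002 and 8.87 on the Zeb1 vector arrays, against 9.82, 9.78 and 9.97 on the control vector arrays, and fell by 0.92 (adjusted p = 5.11e-05). Rab24 and Rab33b, both linked to autophagy, Rab30 of the Golgi and Rab31 of Golgi to endosome traffic were not called, with log2 changes between -0.09 and 0.14.

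**Figure D4:**
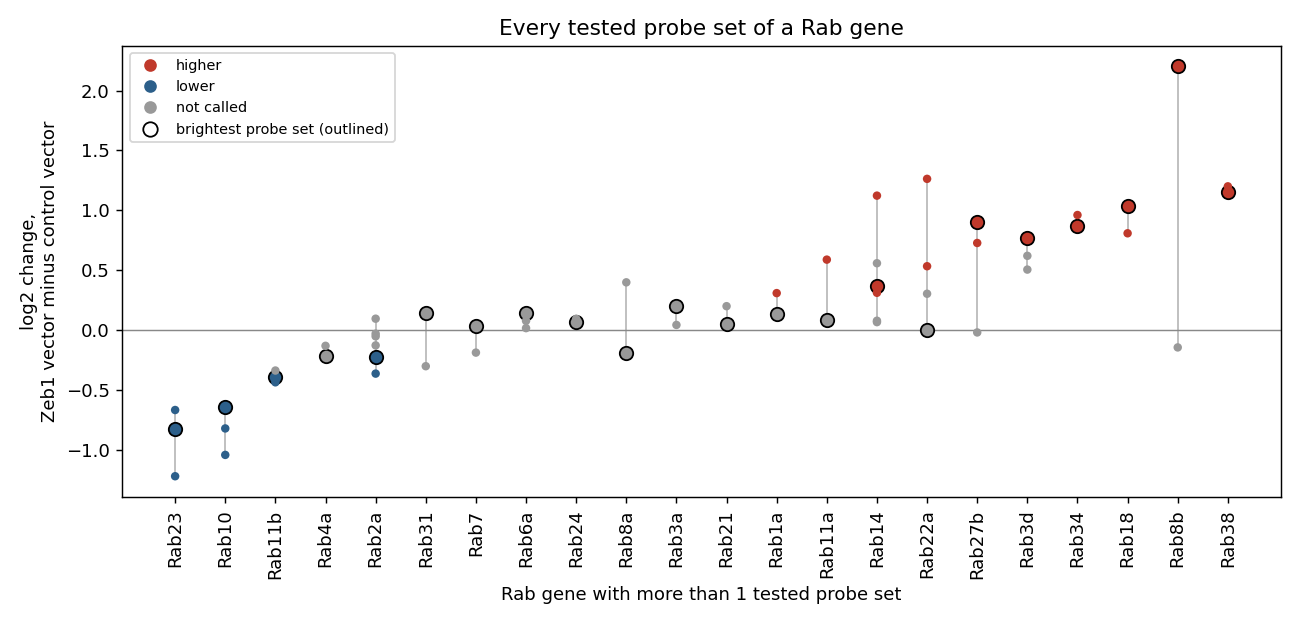
log2 change of every tested probe set (vertical axis, Zeb1 vector minus control vector) for the 22 Rab genes with more than 1, in red where called higher, blue where called lower and grey where not called, with the brightest outlined. In 9 genes some probe sets were called and others not, and no gene had called probe sets in both directions. Such counts were not made over all genes.

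Different probe sets of 1 Rab gene often gave different sizes. Of the 78 tested Rab probe sets 21 were called higher and 17 lower (48.7%, beside 46.1% over all 20594 tested probe sets). Among 22 genes with more than 1 tested probe set, 14 had at least 1 called, and in 9 of these the probe sets were called in part. No gene had probe sets called in both directions. These counts by gene were not made over all genes, so nothing particular to Rabs is read from them. Rab1a, Rab11a and Rab22a, not called on their brightest probe set, each had another that rose. Which transcript forms these probe sets read is not known here, and 12 of the 97 are of a kind (suffix _s_at or _x_at) whose probes can match more than 1 transcript.

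Genes that control Rabs, or act through them, changed in both directions as well. Of 110 tested genes from 7 lists of regulators and effectors 35 rose and 27 fell (56.4% called, background 49.3%), with a median log2 change of 0.12. Among those named, Mlph, Sgsm3 and Rilp passed the filter through the Zeb1 vector arrays alone and Tbc1d2, Tbc1d8 and Exph5 through the control vector arrays alone, so these had to differ. In the list for GDI and prenylation all 7 tested genes were called, 5 higher and 2 lower, with changes under 1 log2 unit. That is 71.4% higher and 28.6% lower in a small list, beside 25.8% and 23.5% over all tested genes. The subunits of the enzyme that prenylates Rabs parted, with Rabggta lower by 0.93 units (log2 change -0.93, adjusted p = 8.55e-05) and Rabggtb higher (0.60, adjusted p = 0.00155). The escort protein gene Chm rose by 0.68 and the Rab-binding chaperone gene Rabif by 0.87, while Rabac1, a prenylated Rab acceptor, fell by 0.49.

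Among exchange factors 4 of 29 rose and 11 fell (13.8% and 37.9%, beside 25.8% and 23.5% over all tested genes), with a median log2 change of 0.01. Dennd2d, of the DENN domain family, averaged 6.90 ± 0.09 in Zeb1 vector cells and 9.02 ± 0.03 in control vector cells (SD, n = 3 each). It was 4.34-fold lower by limma on this probe set (log2 change -2.12). Its other tested probe set had a change of -0.72, and the mean of its probe sets gave -1.42. That other probe set passed the filter through the control vector arrays alone, so it had to differ. Als2cl fell by 1.07 (log2 change -0.44 on its other probe set) and Dennd2c by 0.90. In contrast Dennd4c rose by 1.09, Dennd6a by 0.85 and Dennd5a by 0.82. Among GAPs 9 of 33 rose and 5 fell (42.4% called, background 49.3%), with a median of 0.10 and a range of -4.09 to 2.15. Tbc1d2, a GAP for Rab7 also known as Armus, averaged 4.58 ± 0.24 in Zeb1 vector cells, 2 of 3 arrays at the floor, and 8.68 ± 0.17 in control vector cells. Its log2 change of -4.09 makes it at least 17.1-fold lower, and a floor at the 50th percentile gave -2.35. Tbc1d8 was at the floor on all 3 Zeb1 vector arrays and at least 5.16-fold lower (log2 change -2.37, or -0.49 with that floor), and Tbc1d2b fell by 1.502. Rab3gap2, a subunit of a Rab3 GAP, rose by 1.65 and Tbc1d9 by 1.62. Sgsm3 was at least 4.45-fold higher (log2 change 2.15, or 1.26 with that floor).

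The effectors of Rab27 and Rab3, which dock secretory granules, had 3 of 7 tested genes higher and 2 lower (42.9% and 28.6%, background 25.8% and 23.5%). Melanophilin (Mlph), which ties Rab27a to a myosin motor, averaged 8.92 ± 0.08 in Zeb1 vector cells and 5.55 ± 0.16 in control vector cells. It was at least 10.4-fold higher (log2 change 3.38, adjusted p = 3.89e-07, or 2.60 with a floor at the 50th percentile). Its other probe set, at the floor on all 3 control vector arrays, was called higher too. Both probe sets passed the filter through the Zeb1 vector arrays alone, so both had to differ and neither call backs the other. Sytl2, a granule docking protein, rose by 2.72 and Rims2 by 1.00, a call lost for Rims2 with no filter (adjusted p = 0.0584). The granule priming factor Unc13d and the Rab27-binding Exph5 fell. Unc13d averaged 7.55 ± 0.16 in Zeb1 vector cells and 9.96 ± 0.12 in control vector cells (log2 change -2.41, adjusted p = 4.49e-07), and Exph5 was at least 5.47-fold lower (log2 change -2.45, or -0.81 with that higher floor).

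Of 8 Rab11 effectors 2 rose and 2 fell (50% called, near the background of 49.3%). Rab11fip5 binds Rab11 and Rab25 on recycling endosomes. It averaged 10.73 ± 0.05 in Zeb1 vector cells and 12.24 ± 0.03 in control vector cells (SD, n = 3 each). Its log2 change was -1.51, and that of its second probe set was -1.56. Both probe sets are of the _s_at kind, whose probes can match more than 1 transcript. Rab11fip3 had a change of -0.70 whose call was lost when the mean of its probe sets was used (adjusted p = 0.520) and with no filter (adjusted p = 0.0548), and the gene had a change of 0.21 or 0.49 on another probe set without control vector replicate 1 or 3. The motor genes Myo5c and Myo5a rose by 0.77 and 0.45, the smaller with overlapping groups and a call lost under 6 of 15 alternatives. Of 7 early endosome effectors 2 rose, Rabep2 (0.79) and the tether Eea1 (0.69). The 3 that fell were Wdfy1 (-0.80), Appl1 (-0.64) and the Rab5 and Rab4 effector Rbsn (-0.63). That is 28.6% higher and 42.9% lower, beside a background of 25.8% and 23.5%. Appl1 lost its call with the mean of probe sets (adjusted p = 0.0832) and without control vector replicate 1 or 3. Of 19 effectors of Rab7, Rab9 and other Rabs 10 rose and 2 fell (52.6% and 10.5%, background 25.8% and 23.5%), with a median log2 change of 0.47. The Rab7 effector Rilp was at least 3.98-fold higher (log2 change 1.99, or 0.76 with the higher floor). Osbpl1a rose by 1.32 (2.64 on its other probe set) and Lrrk2, a kinase of Rabs, by 1.07. Micall1 fell by 0.80 and Rabepk by 0.25, a call lost for Rabepk under 10 of 15 alternatives.

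**Figure D5:**
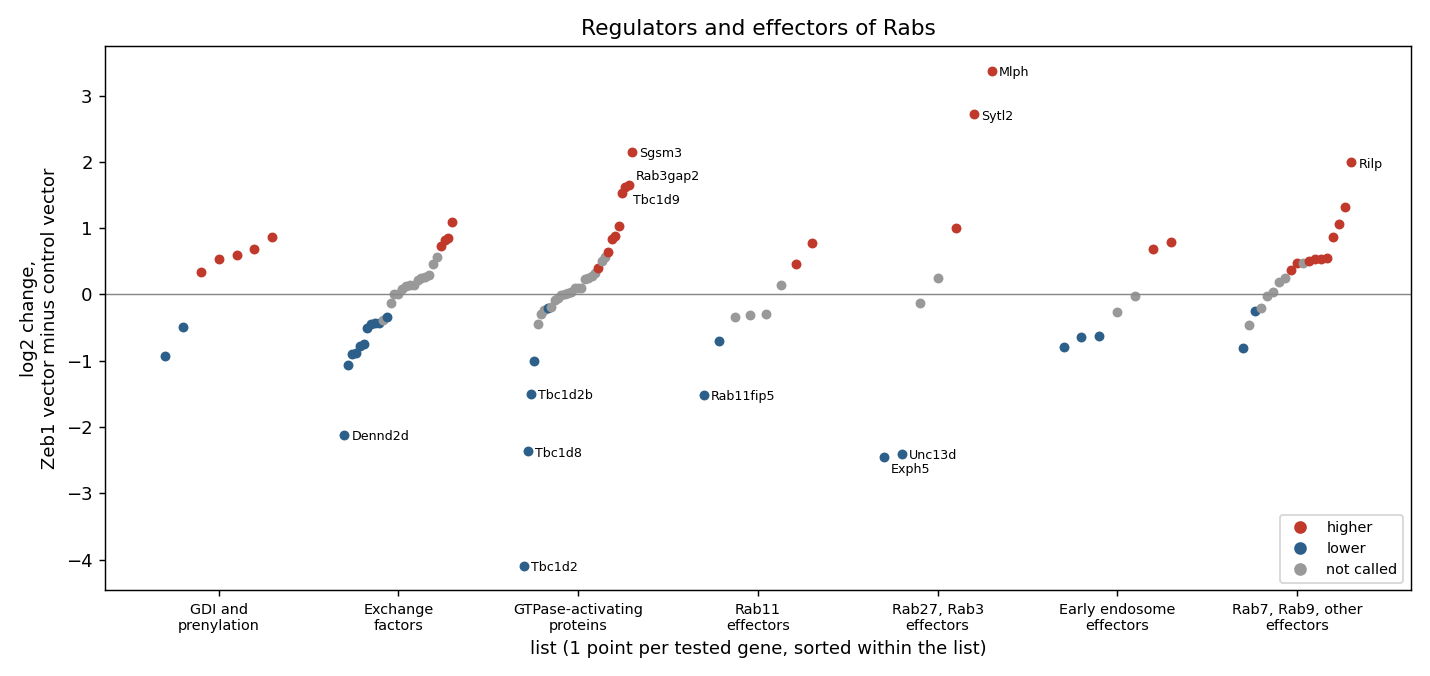
log2 change of 110 tested regulators and effectors of Rabs (vertical axis, Zeb1 vector minus control vector), 1 point per gene sorted within its list, in red where called higher, blue where called lower and grey where not called. Mlph at 3.38 and Tbc1d2 at -4.09 are the extremes, and named points have a change of at least 1.5 units.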

How the data were processed

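The deposited table holds log2 signals of Affymetrix probe sets on 6 arrays, and per the submitters' processing notes the authors used MAS5, which treats every array separately; no version is given in the sources used here. On the linear scale 100% of values were multiples of 0.1 (tolerance 0.01 multiples), and the mean with 2% trimmed from each end was 500.003 to 500.189 on each array, so arrays had been scaled alike. Detection calls were not used here. The 2 missing values and all signals below the 25th percentile of pooled values (log2 4.45, linear 21.8) were raised to it, which placed 24.0% to 26.4% of each array at this floor.

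Of 45101 probe sets 34945 had 1 gene symbol in the platform annotation, and all 97 Rab probe sets matched the RefSeq gene table by Entrez identifier. The 20594 that reached their array's median on at least 3 of 6 arrays were tested with limma 3.58.1 in R 4.3.3 (lmFit, then eBayes with trend), adjusting by Benjamini-Hochberg over them all with a threshold of 0.05. A gene was called through its tested probe set with the highest mean. All adjusted p-values are from this fit unless a permutation is named. Folds are written as at least where an array lay at the floor or the lower group's mean was under the pooled median (6.32). Precision is limited by the number of arrays (median SE 0.147 log2 units).

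The members and lists were chosen with earlier results of these data known. The genes named are all members, Zeb1, cell type markers, and from each list of regulators the up to 3 largest called rises and falls. Protein sequences were not used here. Alternatives changed the floor, filter, scaling, probe set rule, variance model and block, or left out an array.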

Additional observations from a re-analysis of the deposited data

How the results depend on the processing

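Each result was recomputed under 15 alternatives. Of the 22 called Rab genes 18 kept their call under all alternatives that gave a value, and the exceptions were Rab1b, Rab2a, Rab3d and Rab5a; no called Rab changed direction. Calls were gained by Rab1a, Rab11a and Rab22a (0.53) with the mean of probe sets, by Rab1a with quantile scaling, and without 1 array by Rab1a, Rab35, Rab8a, Rab31 and Rab3a. The numbers of Rab genes called ran from 10 to 14 for higher and from 9 to 12 for lower. The median log2 change of the epithelial and apical list was 0.84 under the stricter filter, against 0.57 as reported, because Rab25, Rab20, Rab3b and Rab27a were then not tested. With the replicate number as a block, 11 Rab genes were higher and 10 lower, Rab1b lost its call (adjusted p = 0.0528), and the medians of the lists were as without the block. The numbers did not pair the arrays: deviations from group means correlated at 0.0173, 0.0138 and -0.0390 between same-numbered arrays. Small changes turned sign: with quantile scaling Rab22a had -0.00748 and Krt18 -0.00472, and with the mean of probe sets Rab7 had -0.0751, Rab31 -0.0802, Rab8a 0.105 and Rabepk 0.0730. Leaving out 1 array at a time gave ranges of log2 change that spanned 0 for Rab7 (-0.0201 to 0.0904), Rab22a (-0.0153 to 0.0391), Rab30 (-0.36 to 0.12), Rab33b (-0.0581 to 0.0625), Rab5b (-0.34 to 0.00131), Krt18 (-0.0182 to 0.0732), Krt19 (-0.0699 to 0.00277), Rab11fip3 (-0.82 to 0.49) and Appl1 (-0.70 to 0.0825). For Rab11fip3 and Appl1 another probe set was then the brightest; the cause of the other turns was not tested. Signal at or near the floor limits Rab6b, and Rab25 in Zeb1 vector cells. Low signal limits Rab39b, Rab27a and the low probe sets.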
